A study of Homo sapiens with 6 samples.

Results

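The genes that carry iron into the cell, store it, let it out and sense it were followed in 22Rv1-ABHD5 cells, by symbol in the deposited table of counts. They are TFRC, SLC11A2 and SLC39A14 (uptake), FTH1 and FTL (storage), NCOA4 (release from storage), SLC40A1 (export), and ACO1, IREB2 and FBXL5 (sensing). The figures label NCOA4 as storage. All 10 were among the 27470 genes listed, and all 10 passed the filter on low counts. 22Rv1 is a human castration-resistant prostate cancer cell line. The 22Rv1-ABHD5 derivative carries ABHD5, the coactivator of the triglyceride lipase ATGL, behind a doxycycline (Dox)-inducible promoter on a lentiviral vector, and was obtained by drug selection. RNA was sequenced from the 3ʹ end in 3 libraries of cells without Dox (labelled control) and 3 libraries of cells with Dox (labelled as overexpressing ABHD5), both after 48 h. Both groups carry the vector, and without libraries of parent cells given Dox an effect of Dox and one of ABHD5 cannot be told apart.

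Iron enters most cells as transferrin bound to the transferrin receptor and leaves the endosome through a divalent metal transporter. What is not used at once is caged in ferritin, a shell of heavy and light chains, and an autophagy receptor returns it by delivering ferritin to the lysosome. The iron regulatory proteins bind a stem-loop in messenger RNA, the iron-responsive element (IRE), when iron is scarce. An IRE in the 5ʹ untranslated region (UTR) then holds back translation, and IREs in the 3ʹ UTR keep the transcript from decay, so that transcripts with 3ʹ elements fall when iron is plentiful. Dividing cells take up more iron, since ribonucleotide reductase and other enzymes of growth need it.

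The IREs were read from the hg38 genome at positions where a UTR of a protein-coding GENCODE 44 transcript held the motif, spelled as a C, any 5 bases and the loop CAGTGN, followed by 5 bases that pair with the 5 bases before the loop (G-T pairs allowed, transcript strand only). They are shown because the members differ in whether, and in which UTR, they hold this motif. The 6-base loop is in capitals, each run reads 5ʹ to 3ʹ along the transcript, and the runs hold 29 bases.
TFRC, 3ʹ UTR, chr3:196050979-196051007, minus strand: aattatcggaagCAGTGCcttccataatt
TFRC, 3ʹ UTR, chr3:196050575-196050603, minus strand: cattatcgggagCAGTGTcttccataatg
TFRC, 3ʹ UTR, chr3:196050510-196050538, minus strand: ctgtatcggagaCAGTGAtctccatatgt
TFRC, 3ʹ UTR, chr3:196050463-196050491, minus strand: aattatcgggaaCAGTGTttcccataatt
FTH1, 5ʹ UTR, chr11:61967574-61967602, minus strand: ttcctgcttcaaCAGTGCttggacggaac
FTL, 5ʹ UTR, chr19:48965335-48965363, plus strand: ctcttgcttcaaCAGTGTttggacggaac
SLC40A1, 5ʹ UTR, chr2:189580661-189580689, minus strand: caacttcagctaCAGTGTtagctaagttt

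Of the 10 members, 4 held such a match, at 7 sites in all, of which TFRC held 4. Over all protein-coding genes, 0.206% of 18971 with a 5ʹ UTR and 0.739% of 19203 with a 3ʹ UTR did. When 1 unpaired base was allowed in the 3ʹ arm of the stem, the shares were 0.559% and 1.95%, and 2 more members matched, both in the 3ʹ UTR. The SLC11A2 site and that of EPAS1, a gene described below, are given here in 30 bases, again with the loop in capitals.
SLC11A2, 3ʹ UTR, chr12:50988268-50988297, minus strand: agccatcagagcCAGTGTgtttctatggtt
EPAS1, 5ʹ UTR, chr2:46297479-46297508, plus strand: tacaatcctcggCAGTGTcctgagactgta
The other added match was in the 3ʹ UTR of IREB2. A match is a description of these letters and was not tested for binding. No match was found in NCOA4, SLC39A14, ACO1 or FBXL5.

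With Dox, TFRC and SLC11A2, which bring iron in, were lower, and FTL and NCOA4, which store it and recycle the store, were higher. Each moved by less than 2-fold. The other 6 members did not pass the test. Thus 4 of the 10 members changed at an adjusted p under 0.05 (the quasi-likelihood test of edgeR, adjusted after Benjamini and Hochberg over 12233 genes), 2 higher and 2 lower. Over all genes tested the share was 25.5%, with 11.9% higher and 13.7% lower. The levels of 5 of the 10 did not overlap between the conditions, 2 above and 3 below with Dox, against 39.5% of all genes tested, 19.0% above and 20.5% below. The median log2 fold change of the members was 0.02, as was that of all genes tested, with members on both sides of 0.

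**Figure D1:**
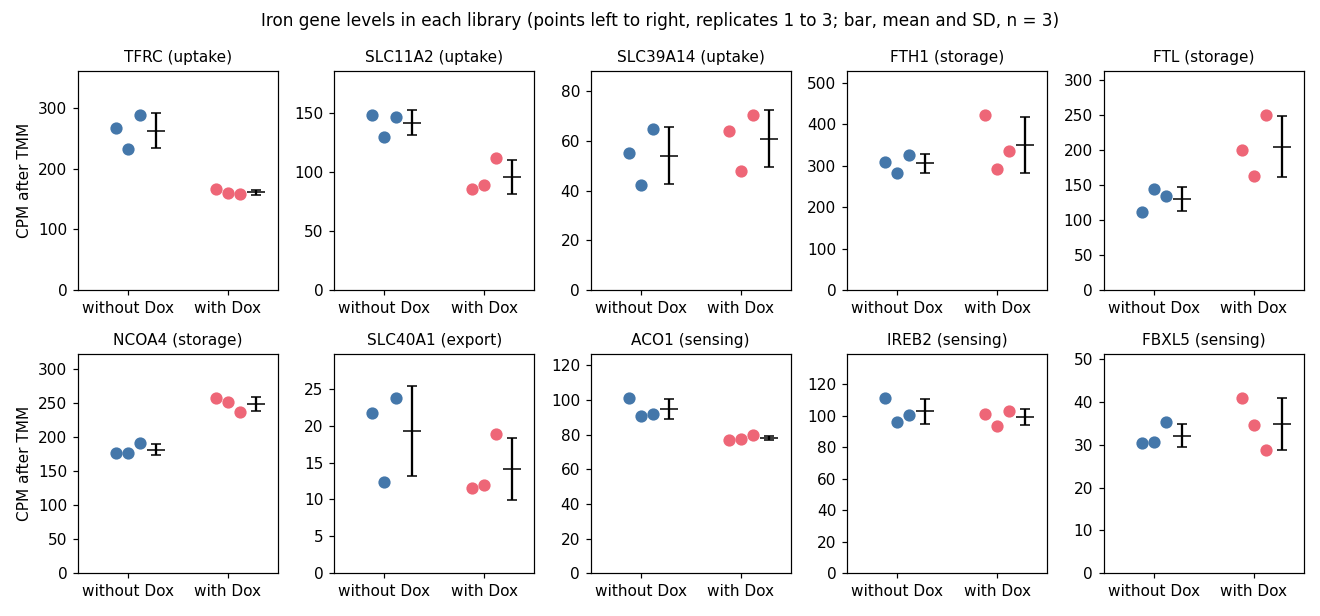
Level of each of the 10 iron genes (vertical axis, CPM after TMM normalization, from 0) in the 3 libraries without Dox (blue) and the 3 with Dox (red); the bar beside each group is the mean with its SD. The groups stand apart for TFRC, SLC11A2 and ACO1, lower with Dox, and for FTL and NCOA4, higher with Dox, and overlap for the other 5.

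Library totals ranged from 3394672 to 7271771 counts on genes, and the 10 members took 0.117% to 0.147% of them. Levels below are CPM, counts scaled to the library size after TMM normalization, 3 counts (0.394 to 0.930 CPM) was taken as the limit of detection, and since nothing in the labels says that the libraries came from separate cultures, p-values measure only the spread between these libraries, which may be technical. ABHD5 itself rose, by 0.91 on the log2 scale (standard error, SE, 0.15, edgeR adjusted p = 1.978e-04). How far counts by symbol, read from the 3ʹ end, take in the transcript of the vector was not tested. All 7 markers of prostate luminal epithelium counted, KLK3 among them, were above the limit of detection in at least 1 library, and their sum was 625 to 696 CPM without Dox and 465 to 558 CPM with Dox. Reads that fell on no gene were 32.5% to 34.6% of those listed without Dox and 35.6% to 39.5% with Dox, with no overlap, and ambiguous reads 3.05% to 3.21% and 3.24% to 3.37%. The part of these shares and of the luminal markers in the results below was not tested. Markers of fibroblasts summed to at most 9.98 CPM, those of leukocytes to 2.79, those of erythroid cells to 1.31 and those of endothelium, PECAM1, VWF and CDH5, to 0. Scaled by library totals alone, the calls over all genes moved from 1451 higher and 1674 lower to 2179 higher and 1136 lower and the median log2 fold change from 0.02 to 0.14. The members called were 2 higher and 2 lower either way.

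TFRC encodes transferrin receptor 1, through which the cell takes up transferrin-bound iron, and lies on chromosome 3 of hg38 from 196012511 to 196082153. It was at 268, 232 and 289 CPM in replicates 1, 2 and 3 without Dox and at 166, 160.0 and 158 CPM with Dox. The libraries with Dox lay close together, all below the lowest library without Dox. The mean fell from 263 ± 29.0 to 161 ± 4.35 CPM (mean ± SD, 3 libraries each), 1.63-fold lower. On the log2 scale the difference was -0.71 (SE 0.12, edgeR adjusted p = 4.306e-04), and it stayed past the threshold under each of 15 other settings.

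Genes of the cell cycle shared the direction of TFRC. All 10 genes of a proliferation list, among them MKI67 and TOP2A, were lower with Dox (edgeR adjusted p below 0.05 for each). The median log2 fold change of the list was -0.91. By the same cut 13.7% of the 12233 genes tested were lower, so this direction is not particular to TFRC and the list. The summed level of the 10 list genes was 4506 to 4804 CPM without Dox and 2195 to 2572 CPM with Dox. The list holds RRM2, a subunit of the iron-dependent ribonucleotide reductase, with a log2 fold change of -0.92. The part of proliferation in the fall of TFRC was not tested. In these bulk libraries a change in the mix of cells by cycle phase and a change of RNA within each cell cannot be told apart.

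SLC11A2 encodes DMT1, the transporter that moves ferrous iron out of the endosome, on chromosome 12 from 50979401 to 51028566. It was at 149, 129.6 and 147 CPM without Dox and at 85.9, 88.8 and 112 CPM with Dox. Replicate 3 with Dox was the highest of its group and still under every library without Dox. The level was 1.48-fold lower, with a log2 fold change of -0.56 (SE 0.14, edgeR adjusted p = 0.00521). SLC11A2 transcripts end with or without the IRE shown above, and counts per symbol do not separate the ends. The ratio of TFRC to SLC11A2 counts was 1.79 to 1.97 without Dox and 1.41 to 1.94 with Dox, with overlap, so that an unequal fall of the 2 genes was not shown (exact permutation test, two-sided, p = 0.5, where 0.1 is the smallest possible).

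SLC39A14 encodes ZIP14, a carrier of iron not bound to transferrin, of manganese and of zinc, on chromosome 8 from 22367278 to 22434129. Its level was 55.4, 42.2 and 64.9 CPM without Dox and 64.2, 48.1 and 70.7 CPM with Dox. The groups overlapped, with replicate 2 the lowest in both. The log2 fold change was 0.17 (95% interval -0.19 to 0.53, edgeR adjusted p = 0.516).

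FTL encodes the ferritin light chain, which helps iron to form a mineral in the shell, and lies on chromosome 19 from 48965309 to 48966879. It was at 111, 144 and 135 CPM without Dox and at 200.1, 164 and 251 CPM with Dox. Every library with Dox was above every library without it, and replicate 3 with Dox was the highest. The mean rose from 130.0 ± 16.9 to 205 ± 43.7 CPM (mean ± SD, 3 libraries each), 1.58-fold, with a log2 fold change of 0.66 (SE 0.15, edgeR adjusted p = 0.00414).

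FTH1 encodes the ferritin heavy chain, which oxidizes ferrous iron for storage, on chromosome 11 from 61959718 to 61967634. Its level was 310.3, 282 and 326 CPM without Dox and 424, 293 and 335 CPM with Dox. Replicate 1 with Dox stood above the rest, and the others overlapped. The log2 fold change was 0.19 (95% interval -0.10 to 0.49, edgeR adjusted p = 0.339) and 0.03 without that library. The test therefore did not call FTH1, and the interval reaches changes of up to 0.49. Within a library the ratio of FTH1 to FTL counts was 2.79, 1.95 and 2.43 without Dox and 2.12, 1.79 and 1.34 with Dox. These ranges overlapped (exact permutation test, two-sided, p = 0.2), so FTH1 and FTL were not shown to change by different amounts.

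Both ferritin genes have many near-identical processed copies in the genome, so that reads could be split or dropped in the authors' counting. Of the 3 rows for such copies of FTH1 and FTL in the table, FTH1P3 had 25 counts over the 6 libraries and FTH1P18 and FTLP10 had 0. BEST1, whose exons overlap 1267 bases of FTH1 on the opposite strand, had 1 to 2 counts per library. No other exon overlap with a listed gene was found for the members, except for 18 bases of FBXL5 shared with FAM200B.

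NCOA4 encodes the autophagy receptor that takes ferritin to the lysosome for release of its iron, on chromosome 10 from 46005088 to 46030623. It was at 178, 177 and 192 CPM without Dox and at 258, 252 and 237 CPM with Dox. Both groups were tight and did not overlap. The mean rose from 182 ± 8.47 to 249 ± 10.7 CPM (mean ± SD, 3 libraries each), 1.37-fold, with a log2 fold change of 0.45 (SE 0.12, edgeR adjusted p = 0.00917). The call was lost without replicate 1 without Dox (log2 fold change 0.42, adjusted p = 0.0647, same test) and without replicate 1 with Dox (0.42, adjusted p = 0.0509).

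**Figure D2:**
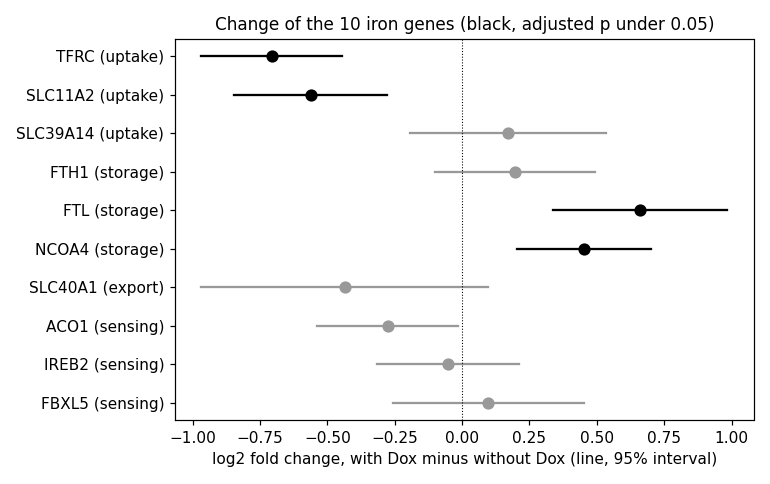
log2 fold change (horizontal axis, with Dox minus without Dox) of the 10 iron genes with its 95% interval from edgeR's quasi-likelihood fit; black marks an adjusted p under 0.05. TFRC at -0.71 and SLC11A2 at -0.56 lie below 0 and FTL at 0.66 and NCOA4 at 0.45 above it, and the grey genes did not pass the threshold.

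The balance of TFRC against the ferritin transcripts can be read within each library, where it does not depend on the scaling between libraries. The other uptake members were not set against ferritin. The ratio of TFRC to FTH1 counts was 0.864, 0.824 and 0.886 without Dox and 0.393, 0.547 and 0.472 with Dox. Each library with Dox lay below each library without it, and the ratio was on average 1.84-fold lower. The ratio of TFRC to FTL counts was 2.41, 1.61 and 2.15 without Dox and 0.832, 0.978 and 0.631 with Dox, 2.53-fold lower. For both ratios the exact permutation test gave p = 0.1 (two-sided). That is the smallest this test can give for 3 against 3 libraries, so it cannot pass 0.05, and no other test was run on the ratios. The ratio of NCOA4 to FTL counts overlapped between the conditions, at 1.23 to 1.60 without Dox and 0.947 to 1.54 with Dox. Those of NCOA4 to FTH1 and of SLC40A1 to TFRC overlapped too.

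**Figure D3:**
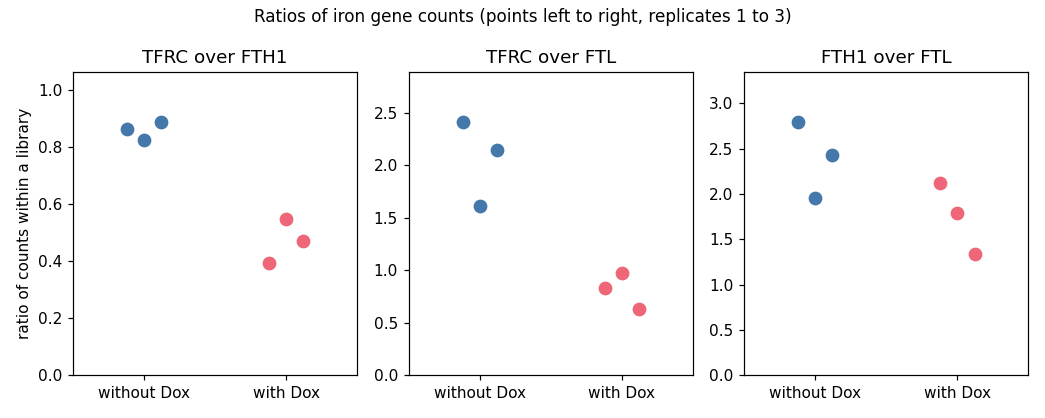
Ratio of the counts of 2 iron genes within each library (vertical axis, from 0, no unit) without Dox (blue) and with Dox (red), for TFRC over FTH1, TFRC over FTL and FTH1 over FTL. The first ratio stays at or above 0.824 without Dox and at or below 0.547 with Dox, the second also separates the conditions, and the third overlaps.

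SLC40A1 encodes ferroportin, the only known exporter of iron from cells, and lies at 189560590 to 189583758 of chromosome 2. Its counts were 83, 40 and 136 without Dox and 53, 43 and 144 with Dox, or 12.4 to 23.7 CPM against 11.5 to 18.9 CPM. The groups overlapped. The log2 fold change was -0.44 (95% interval -0.97 to 0.09, edgeR adjusted p = 0.224), and without replicate 3 with Dox it was -0.74 and passed (adjusted p = 0.0483, same test). At this depth SLC40A1 was the member with the widest interval.

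ACO1 and IREB2 encode the iron regulatory proteins IRP1, which doubles as the cytosolic aconitase when it holds an iron-sulfur cluster, and IRP2, which is degraded when iron is plentiful. ACO1, on chromosome 9 from 32384603 to 32454769, was at 101, 90.6 and 92.0 CPM without Dox and at 77.0, 77.4 and 79.6 CPM with Dox. The groups did not overlap, yet the difference missed the threshold after adjustment (log2 fold change -0.28, 95% interval -0.54 to -0.02, unadjusted p = 0.0387, edgeR adjusted p = 0.113). IREB2, on chromosome 15 from 78437431 to 78501453, was at 111, 96.1 and 101 CPM without Dox and at 101, 93.2 and 103 CPM with Dox. Its log2 fold change was -0.05 (95% interval -0.31 to 0.21, adjusted p = 0.805, same test), and the sign turned when libraries were scaled by upper quartiles or by totals alone. The ratio of ACO1 to IREB2 counts was 0.908 to 0.942 without Dox and 0.763 to 0.830 with Dox, with no overlap (exact permutation test, two-sided, p = 0.1, the smallest possible).

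FBXL5 encodes the iron-binding F-box protein that marks the iron regulatory proteins for degradation, on chromosome 4 from 15604381 to 15681679. Its level was 30.3, 30.7 and 35.3 CPM without Dox and 40.9, 34.5 and 28.8 CPM with Dox. The libraries with Dox reached both above and below those without. The log2 fold change was 0.10 (95% interval -0.26 to 0.45, edgeR adjusted p = 0.717). Of the 3 sensing genes, then, none was called by edgeR or by DESeq2. Only ACO1, 1 of the 3, had an unadjusted p under 0.05, as had 4507 of the 12233 genes tested.

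Sorted by the place of the motif, with 1 unpaired base allowed, 2 of the 3 members with a match in the 3ʹ UTR, TFRC and SLC11A2, were lower with Dox, and the other, IREB2, did not pass (log2 fold change -0.05). Of the 3 with a 5ʹ element, FTL was higher and FTH1 and SLC40A1 did not pass. Over all genes tested 13.7% were lower and 11.9% higher, and groups of 3 genes are too small to set against these shares. SLC11A2 and IREB2 matched only with the unpaired base. NCOA4 was higher with no match. Translation, which the 5ʹ elements act on, is not measured by counts of transcripts.

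**Figure D4:**
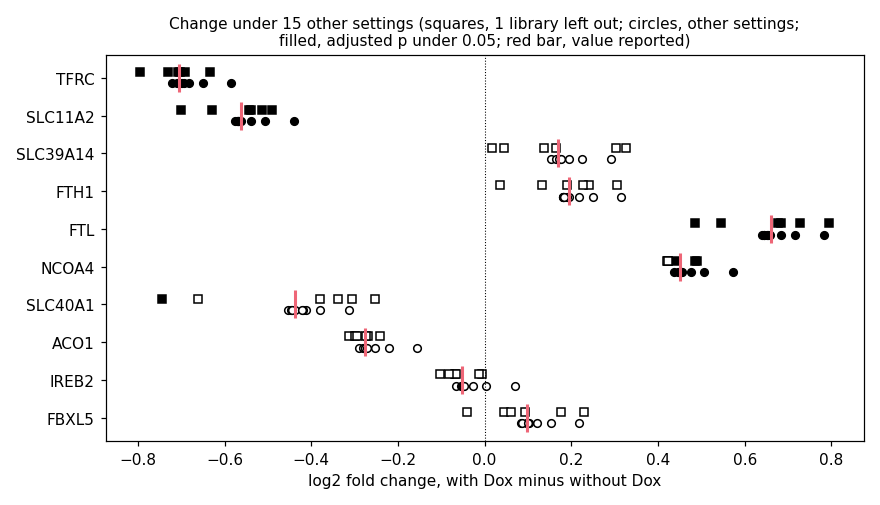
log2 fold change (horizontal axis, with Dox minus without Dox) of each iron gene under 15 other settings; squares leave out 1 library, circles change the normalization, filter, test or input, filled marks have an adjusted p under 0.05 and the red bar is the value reported. TFRC, SLC11A2 and FTL are filled throughout, NCOA4 has 2 open squares and SLC40A1 has 1 filled square at -0.74.

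The level of TFRC over the 6 libraries was most like that of TXNL4A, MELK and EMP2, with Pearson's r of 0.999, 0.997 and 0.996 for log2 CPM. All 3 were lower with Dox, and 370 genes had an r over 0.95 with TFRC. FTH1 was most like TLX2, TLE6 and POLR1D (r of 0.989, 0.964 and 0.963), with 11 genes over 0.95. SLC40A1 was most like ENOPH1, RAB30-AS1 and RPA1 (r of 0.9996, 0.994 and 0.991), with 18 genes over 0.95. These libraries share their scaling and, with 6 points and 12233 genes, values this high are a description only.

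Outside the members, a list of 94 other genes of iron metabolism was counted, of which 71 were tested. At an adjusted p under 0.05, 7 were higher and 12 lower by edgeR, 19 of 71 in all. That is 26.8%, close to the 25.5% of all genes tested. The other 52 did not pass. Of the 19, 10 were called under every setting in which they could be tested.

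Genes of uptake and reduction gave 1 higher and 3 lower of 7 tested, or 57.1% against the 25.5% of all genes. The lists are short and were chosen with earlier results of these data known, so this share and those of the lists below are descriptions only. The 3 lower genes were STEAP4 (log2 fold change -4.01, edgeR adjusted p = 3.319e-09), STEAP2 (-0.61, adjusted p = 0.00120) and STEAP1 (-0.61, adjusted p = 0.00343). The STEAP proteins sit in the membrane, and STEAP2 and STEAP4 reduce ferric iron, which DMT1 cannot carry until it is ferrous. STEAP4 was at 44.7, 39.1 and 42.8 CPM without Dox and at 3.48, 3.34 and 1.58 CPM with Dox. SLC22A17, a receptor for lipocalin-bound iron, was higher at low counts (4, 6 and 9 without Dox, 15, 18 and 36 with Dox, log2 fold change 1.53, adjusted p = 0.0105, same test) and lost its call without replicate 1 without Dox.

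Of the genes of export and systemic control, 2 of 10 were tested, and 0 passed with edgeR, with DESeq2 or at an unadjusted p under 0.05. The cytosolic iron chaperones gave 0 of 4 with edgeR and with DESeq2, and 1, PCBP1, at an unadjusted p under 0.05. Mitochondrial import and storage gave 1 of 5 (20.0%), ABCB8, an inner membrane transporter, with 0.91 on the log2 scale (edgeR adjusted p = 0.00303).

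The genes of heme synthesis gave 1 lower of 9 tested (11.1%), CPOX, coproporphyrinogen oxidase (log2 fold change -0.78, edgeR adjusted p = 0.00718). Heme export, transport and breakdown gave 3 lower and 0 higher of 9, or 33.3% against the 25.5% of all genes. HMOX1, the inducible heme oxygenase that frees iron from heme, was at 25.6, 23.6 and 23.7 CPM without Dox and 10.9, 17.5 and 11.4 CPM with Dox (-0.90, adjusted p = 0.00417, same test). FLVCR1, a heme exporter, had -0.50 and BLVRB, a biliverdin reductase, -0.41, and their calls were lost under 3 and 6 of 15 settings.

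Of the genes that assemble iron-sulfur clusters in mitochondria, 2 were higher and 2 lower of 17 tested, or 23.5% against the 25.5% of all genes. BOLA3, at -0.75 (edgeR adjusted p = 1.648e-04), and GLRX5, at -0.68 (adjusted p = 5.663e-04), both act late, in handing clusters on, and were lower under each setting. The scaffold gene ISCU, at 0.38, and the ferredoxin reductase gene FDXR, at 0.52, were higher, and lost their calls under 5 and 4 of 15 settings. In the cytosol 2 of 9 (22.2%) were lower, NDOR1 at -0.62 and NUBP1 at -0.41. NDOR1 lost its call without replicate 2 with Dox (edgeR adjusted p = 0.0502), and NUBP1 kept its call under 4 of 15 settings.

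**Figure D5:**
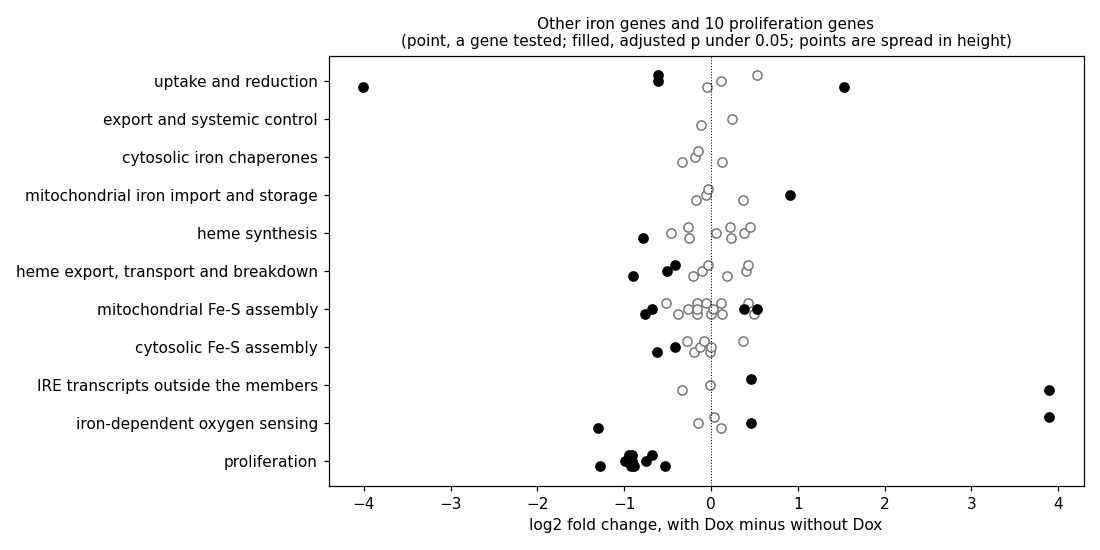
log2 fold change (horizontal axis, with Dox minus without Dox) of each tested gene in 10 lists of other iron genes and 1 list of proliferation genes; filled points have an adjusted p under 0.05, the spread in height within a list only separates points, and EPAS1 stands in 2 lists. STEAP4 at -4.01 and EPAS1 at 3.90 lie farthest out, and all 10 proliferation genes lie below 0.

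Among transcripts outside the members that are described as carrying an IRE, 2 were higher and 0 lower of 4 tested. That is 50.0% of a short list, against the 25.5% of all genes. EPAS1, which encodes the hypoxia factor HIF-2α and holds the 5ʹ element shown above, had 7, 2 and 5 counts without Dox and 62, 52 and 163 with Dox. That is 1.11 ± 0.637 against 16.5 ± 4.32 CPM (mean ± SD, 3 libraries each), or 3.90 on the log2 scale (SE 0.37, edgeR adjusted p = 6.299e-07). Replicate 2 without Dox was below the limit of detection. CDC42BPA, a kinase gene, had 0.47 (adjusted p = 0.0277, same test), with overlapping groups and no call under 4 of 15 settings. CDC14A, which held a 3ʹ match with no unpaired base, had -0.34 and PFN2 -0.01, and neither passed. ALAS2, which held a 5ʹ match, and HAO1 were not tested. The motif scan found no match in CDC42BPA, PFN2 or HAO1, with or without the unpaired base.

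The oxygen sensors, whose hydroxylases need iron, gave 2 higher and 1 lower of 6 tested, or 50.0% against the 25.5% of all genes. HIF1A, the gene of HIF-1α, was at 284, 315 and 269 CPM without Dox and 111, 148 and 93.7 CPM with Dox. It fell by 1.30 on the log2 scale (edgeR adjusted p = 7.591e-06), while EPAS1 rose from near the limit of detection. ARNT, the gene of their shared partner, had 0.46 (adjusted p = 0.0405, same test), with overlapping groups and no call under 7 of 15 settings. VHL, EGLN1 and HIF1AN did not pass, at 0.03, 0.12 and -0.15.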

How the data were processed

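Per the labels and the study's methods, total RNA was made into QuantSeq 3ʹ libraries and sequenced as 100 bp single-end reads. The authors used CASAVA 1.8.2 and FastQC, aligned to hg38 with STAR, and deposited a table of raw counts by gene symbol. The submitters' processing notes also name HTSeq and edgeR. Annotation and strand setting are not given in the sources used here. The labels name the forward kit and the methods the reverse kit. For each library the authors also deposited normalized values, a signal scaled to nearly equal totals by a method not given. In 27 of 27475 rows the names of the 2 kinds of file disagreed, and these rows were not used in the alternative with normalized values.

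Reads assigned to no gene (no feature, 32.5% to 39.5% of listed reads, and ambiguous, 3.05% to 3.37%) entered neither library sizes nor tests. Counts were tested with edgeR 4.0.16 in R 4.3.3 (TMM, filterByExpr, quasi-likelihood test, Benjamini-Hochberg over all 12233 genes tested). Standard errors and 95% intervals come from that fit. Ratios were compared by exact permutation of the 6 libraries. Replicates differed by more than counting noise (chi-square per degree of freedom 4.07 to 11.3), so each library was 1 sample. Limits of detection cover counting error only, as reads carry no molecular identifiers. On simulated counts for this comparison, 200 genes were set to change and 12094 genes passed the filter. Calls reached 43.1% of the changes set at 1.5-fold, 71.2% at 2-fold and 98.4% at 4-fold. The data gave 3125 calls, and the adjusted p depends on that number, so these shares do not give the power for the data.

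The members and lists were chosen with earlier results of these data known. Genes named are the members, ABHD5, in each list the up to 3 smallest adjusted p values per direction, the IRE list, and the 3 genes most like TFRC, FTH1 and SLC40A1; other names were chosen after their values were seen. Alternatives were DESeq2 1.42.0, limma 3.58.1, other normalizations and filters, a replicate block, stricter thresholds and each library left out. The normalized values (log2 of value plus 1, limma) were added after the data were seen. Positions are from GENCODE 44. Some listed genes are not reported here and were left out of their lists after the first analysis.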

Additional observations from a re-analysis of the deposited data

How the results depend on the processing

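Of 150 values of the 10 members under other settings (15 each), 144 had an unchanged sign and call. NCOA4 lost its call under 2, and SLC40A1 gained one under 1. IREB2 turned to 0.0035 with upper-quartile normalization and to 0.0701 with library totals alone, and FBXL5 to -0.0400 without replicate 1 with Dox. The members called were 4 under each planned change of normalization, filter or test, 3 to 5 with each library left out in turn, and 0 when a 2-fold change was also asked for (edgeR; also 0 at an unadjusted p under 0.05 and 0 with DESeq2). All genes called numbered 3125, 1777 at a threshold of 0.01 and 923 at 2-fold. The other iron genes called numbered 19, 10 at a threshold of 0.01, 4 at 2-fold and 12 to 19 with each library left out. The low of 12 came when replicate 1 of either condition was left out. The smaller counts at 0.01 and at 2-fold follow from the stricter rule, and the cause of the differences between libraries left out was not tested.

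The labels' replicate numbers were not used as pairs in the test reported. Same-numbered libraries deviated from their condition's mean with correlations of -0.01, 0.23 and 0.09 across 12233 genes. Libraries with different numbers gave -0.17 to 0.10, and the highest value, 0.23, came from replicate 2 of both conditions. Whether the numbers mark pairs was not tested. With the replicate number as a block, 4 members, 21 other iron genes and 3537 genes in all were called. The simulated test called 43.1% of changes at 1.5-fold, but with only 200 genes set to change, so that share does not give the power for the members. A member that missed the threshold is not shown to be unchanged.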
